A study of Homo sapiens with 8 samples.

Results

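Carriers of organic ions, folate, thiamine and nucleosides were described in endothelial cells made from human stem cells. The members were all protein-coding genes of the deposited table whose symbol belongs to the families SLCO, SLC19, SLC22, SLC28, SLC29, SLC46 or SLC47, which gave 38 of 30386 genes. GENCODE release 29 annotates 49 protein-coding genes in these families, and the other 11, among them SLC22A8, the organic anion carrier OAT3, were not analysed here. Within the table the choice used symbols and gene type only, but it was made with earlier results of these data known. No gene in the table totalled under 2 counts.

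Messenger RNA was sequenced from 4 iEC samples, labelled as endothelial cells, and 4 iREC samples, labelled as retinal endothelial cells; the letters C to F number the replicates of each group. Both groups came from WTC-TJP1, an established line of human induced pluripotent stem cells, by matched differentiations, and both were taken at passage 1. The differentiation media and factors are not given in the sources used here, and all samples descend from this single line. Nothing in the labels says that the samples came from separate cultures, so the p-values measure only the spread between these samples, which may be technical. Between 13739364 and 16971865 counts were assigned per sample, of which the 38 genes took 0.0416% to 0.0430% in iEC and 0.0292% to 0.0355% in iREC.

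Organic anion transporting polypeptides (OATPs, gene family SLCO) and the SLC22 family move hormones, prostaglandins, drugs, carnitine and charged amines across the cell membrane. The SLC19 and SLC46 families carry folate and thiamine, and the SLC28 and SLC29 families mainly carry nucleosides, the first driven by sodium. In capillaries of the brain and retina, whose junctions close the path between cells, such carriers decide which vitamins, hormones and drugs pass through the endothelium. SLC47 proteins extrude organic cations in exchange for protons, mainly in kidney and liver.

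The labelled cell type was checked first. All 12 endothelial marker genes were above 1 CPM (reads scaled to the library total, with TMM factors between libraries) in at least 1 sample, and together they reached 7552 to 9574 CPM in the iEC samples and 4575 to 10270 CPM in the iREC samples, lowest in iREC F. Library iREC F stood apart from the other iREC samples in the markers of other cells. Its 12 mural and mesenchymal markers summed to 4594 CPM against 648 to 1281 CPM in iREC C, D and E and 240.0 to 501 CPM in iEC. Its 9 epithelial markers summed to 4925 CPM against 304 to 1119 CPM in the other iREC samples and 391 to 1174 CPM in iEC. Most of this was KRT8 at 3025 CPM and KRT18 at 1538 CPM, keratins also present in every iEC sample. CDH1, KRT19 and KRT7 were highest in iREC F too, at 81.6, 207 and 69.3 CPM. EPCAM (3.28 CPM), ESRP1 (0.328 CPM), CLDN4 (0 CPM) and GRHL2 (0.393 CPM) were low in iREC F. Results without that library are therefore given beside the tested members whose call or direction it moves. Of 11 markers of retinal pigment epithelium and retinal neurons, 8 were in the table, 5 of them (PAX6, RLBP1, RPE65 and TYR among them) under 1 CPM in every sample, and their sum was at most 9.83 CPM in any sample. In bulk RNA, fewer cells of a type and less RNA per cell cannot be told apart.

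The uridine and adenosine carrier SLC29A1 and the lysosomal nucleoside carrier SLC29A3 fell in iREC, and so did the folate carrier SLC19A1 and the ergothioneine carrier SLC22A4. The OATP genes SLCO2A1, SLCO3A1 and SLCO2B1, the thiamine carrier SLC19A3 and the SLC22 members SLC22A15 and SLC22A17 rose. Of the 38 genes, 19 had enough counts to be tested, and edgeR's quasi-likelihood test called 10 of these 19 at a Benjamini-Hochberg adjusted p under 0.05 over all tested genes, which is 52.6%, where 25.0% of all 15330 tested genes were called. The 6 called higher are 31.6% of the tested members against 13.2% of all tested genes, and the 4 called lower are 21.1% against 11.7%. A member can pass the filter on low counts only through the group in which it is high, so these shares describe the tested members and carry no weight for the families as such. The CPM ranges of the groups did not overlap in 8 tested members, 42.1%, where 29.1% of all tested genes showed no overlap. The median log2 fold change (iREC over iEC) of the tested members was 0.19, against 0.02 over all tested genes, and it was -0.09 without iREC F. Without iREC F, 9 members were called, 5 higher and 4 lower. That fit called 4214 of all 15783 tested genes, 2223 higher and 1991 lower.

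**Figure D1:**
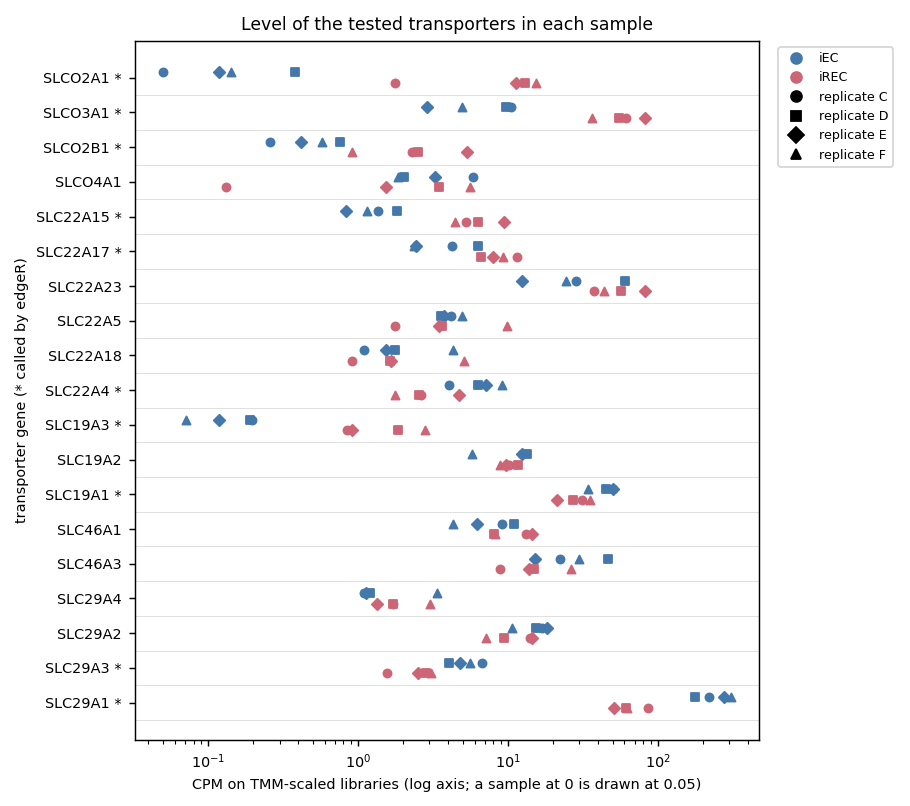
Level of the 19 tested transporters in each sample, in CPM on TMM-scaled libraries (log axis), with blue points for iEC, red points for iREC and the point shape for the replicate letter; asterisks mark the 10 genes called by edgeR. The 4 iREC points of SLCO2A1, SLCO3A1, SLCO2B1, SLC22A15 and SLC19A3 lie right of all iEC points, and those of SLC29A1 and SLC29A3 lie left of them.

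**Figure D2:**
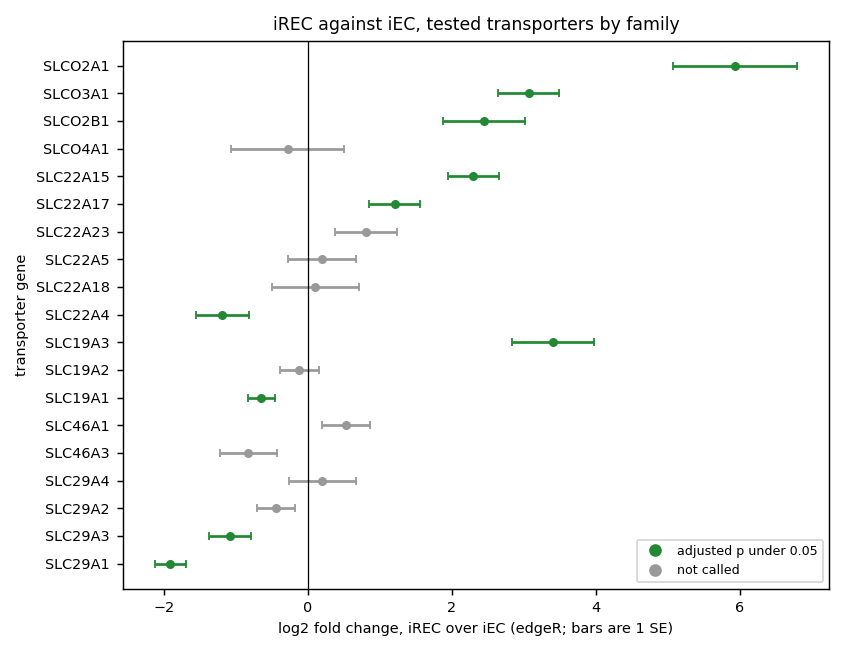
Log2 fold change of iREC over iEC for the 19 tested transporters from the edgeR fit of all genes, with bars of 1 SE derived from the F statistic, green where the adjusted p was under 0.05. The called genes run from SLC29A1 at -1.91 to SLCO2A1 at 5.94.

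Counting length-scaled values (the deposited FPKM, fragments scaled to gene length and library size), the 38 genes together summed to 87.8 ± 9.56 FPKM in iEC and 51.3 ± 2.62 FPKM in iREC (SD, n = 4 each), and the samples of the groups did not overlap. The equilibrative nucleoside transporters (SLC29) made up most of this sum in iEC, 62.2 ± 14 FPKM, and 19.4 ± 3.67 FPKM in iREC. The OATP family went the other way, from 1.77 ± 0.78 FPKM to 8.31 ± 1.83 FPKM, also without overlap. The sums of SLC22 (8.34 ± 2.66 and 12.3 ± 2.66 FPKM), SLC19 (6.92 ± 1.38 and 5.28 ± 0.65 FPKM) and SLC46 (8.52 ± 3.65 and 5.66 ± 1.67 FPKM) overlapped between the groups. SLC29A1 alone held 62.4% of the transporter FPKM in iEC and 28.4% in iREC, and SLCO3A1 held 41.2% of the OATP sum in iEC and 73.3% in iREC. By mean FPKM in iREC, SLC29A1 at 14.5 ± 3.34 came first, followed by SLCO3A1 at 6.12 ± 1.93, SLC22A23 at 6.07 ± 2.15, SLC46A3 at 4.18 ± 1.96 and SLC29A2 at 4.06 ± 1.27, and from SLCO3A1 on, neighbours in this order differ by less than their spread.

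**Figure D3:**
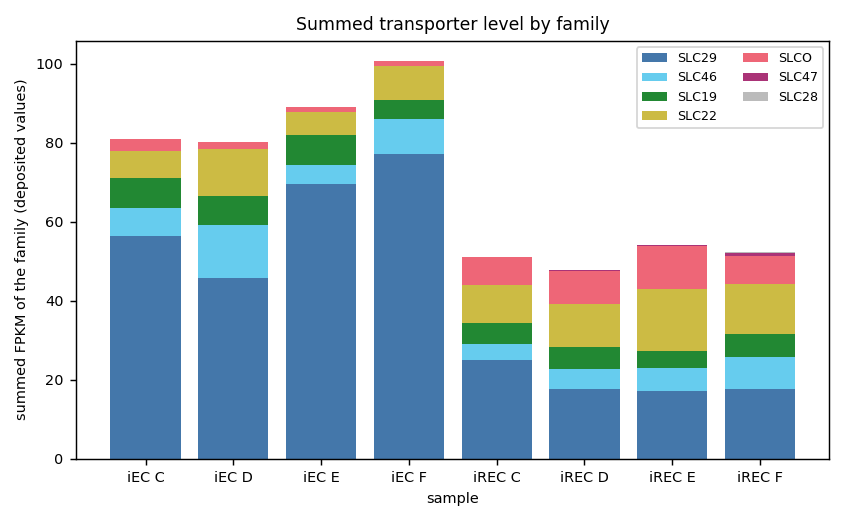
Summed FPKM of each transporter family in the 8 samples, stacked, as computed from the deposited FPKM values. The iEC bars reach 80.3 to 101 FPKM and are mostly SLC29, and the iREC bars reach 47.8 to 54.1 FPKM with a larger OATP segment.

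The equilibrative nucleoside transporters were described first. SLC29A1 (ENSG00000112759, chromosome 6, 44219505 to 44234151, plus strand, GRCh38) encodes ENT1, the main carrier of adenosine and other nucleosides at the plasma membrane. It was at 220.0, 176, 276 and 308 CPM in iEC C, D, E and F and at 86.3, 61.0, 51.2 and 62.0 CPM in the iREC samples, in the same order of letters, an order kept for all further series of values. Every iREC sample was below every iEC sample, the highest of them iREC C. The level fell 3.76-fold, a log2 fold change of -1.91 ± 0.22 (SE; adjusted p 0.00034 by edgeR), and it was called in all 17 alternative analyses, with values from -2.08 to -1.79. SLC29A3 (chromosome 10, 71319258 to 71381423), which encodes the nucleoside carrier of lysosomes, was at 6.76, 4.05, 4.80 and 5.58 CPM in iEC and at 1.57, 2.86, 2.50 and 3.08 CPM in iREC. The groups did not overlap here either, with iREC C lowest. Its log2 fold change was -1.08 ± 0.29 (SE; adjusted p 0.0253 by edgeR), and this call was lost in 6 of 17 alternatives, 5 of them with a library left out (iEC C, iEC E, iREC C, iREC D or iREC E), with an adjusted p of up to 0.0737.

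The other members of the family did not pass the test. SLC29A2, which encodes ENT2, a carrier that also takes nucleobases, had 17.0, 15.4, 18.2 and 10.7 CPM in iEC and 14, 9.42, 14.5 and 7.14 CPM in iREC, a log2 fold change of -0.44 ± 0.27 (SE; adjusted p 0.262 by edgeR), and its groups overlapped. SLC29A4, which encodes the plasma membrane monoamine transporter, stayed between 1.11 and 3.36 CPM in iEC and between 1.34 and 3.01 CPM in iREC, with the F sample highest in each group (0.20 ± 0.46, adjusted p 0.789, and -0.09 without iREC F, adjusted p 0.903). SLC29A4 shares 81 of its 5811 exon bases with TNRC18 on the opposite strand, which had 17503 counts against 220 for SLC29A4. TNRC18 rose by 1.83 on the log2 scale (edgeR adjusted p 0.000142), and the part of its reads in the SLC29A4 values was not tested. The sodium-coupled carriers SLC28A1, SLC28A2 and SLC28A3, which concentrate nucleosides inside the cell, were all below the filter. SLC28A3, the highest of them, had 6 counts over the iEC samples and 16 over the iREC samples, a ratio of 2.72 after scaling to library size with an exact 95% counting interval of 1.011 to 8.49, which covers counting error only. Fitted without the filter, SLC28A3 was not called by edgeR (adjusted p 0.429). SLC28A1 and SLC28A2 had at most 3 counts in any sample.

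The stretches upstream of the SLC29 genes that fell are shown because both members moved the same way. They come from RefSeq on GRCh38.p14, read 5′ to 3′ on the gene's strand, and hold the bases that lie before both the RefSeq and the GENCODE start; capitals mark matches to the motifs searched on both strands. One motif was GGGCGG, known as the GC box, and another was TATAAA, the usual form of the TATA box. For the factors of endothelial genes, the letters CCGGAAG stood for the ETS family and the letters GATAAG stood for the GATA family. The last motif was ACGTG, the core of E-box and hypoxia elements.
SLC29A1, chr6:44219365-44219504, plus strand: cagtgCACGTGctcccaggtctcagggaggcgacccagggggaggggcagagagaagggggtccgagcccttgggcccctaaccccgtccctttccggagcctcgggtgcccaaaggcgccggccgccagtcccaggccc
SLC29A3, chr10:71319009-71319257, plus strand: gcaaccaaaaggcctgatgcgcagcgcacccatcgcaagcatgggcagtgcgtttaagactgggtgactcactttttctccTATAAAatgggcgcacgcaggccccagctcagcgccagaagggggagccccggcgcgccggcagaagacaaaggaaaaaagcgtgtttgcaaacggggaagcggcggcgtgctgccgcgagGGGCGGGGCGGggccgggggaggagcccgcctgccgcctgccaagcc

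SLC29A1 holds CACGTG, which carries ACGTG on both strands, and 2 GGGCGG matches nearer the RefSeq start, in bases not printed because GENCODE places the gene's start 110 bases further upstream. SLC29A3 holds TATAAA and 2 overlapping GGGCGG matches. Of the 38 members, 25 had a RefSeq promoter. GGGCGG was present in the 250 bases before the start in 15 of these 25 and in 42.6% of all 35116 promoters of the same length. ACGTG was present in 7 of 25 and in 18.5% of all, and TATAAA in 2 of 25 and in 10.7% of all. CCGGAAG and GATAAG were in 0 of the 25, against 8.5% and 5.6% of all promoters. The median GC content was 65.2% over the 25 and 58.0% over all. Such matches describe the letters only.

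Around the nucleoside carriers, a list of 29 enzymes and receptors of nucleoside and adenosine metabolism had 24 tested members, of which 5 rose and 4 fell, 37.5% called against 25.0% of all tested genes, with a median log2 fold change of -0.04 against 0.02. ADORA1 below had few iEC reads and passed the filter only through iREC. As for the carriers, the share and median describe the tested genes and carry no weight for the list as such. PNP, which splits purine nucleosides, was at 205, 179, 241 and 177 CPM in iEC and at 59.9, 53.0, 43.9 and 72.0 CPM in iREC, with no overlap (-1.81 ± 0.18 SE, adjusted p 0.00015). ADK, the kinase that clears adenosine inside the cell, averaged 73.6 ± 16.1 CPM in iEC and 33.1 ± 4.65 CPM in iREC (SD, n = 4) and fell by 1.15 on the log2 scale (adjusted p 0.00186). SAMHD1, which breaks down deoxynucleotides, fell by 0.97 on the log2 scale (adjusted p 0.00981). The rises were led by ADORA1, the adenosine A1 receptor, from 0.24 to 1.91 CPM (2.94 ± 0.55 SE, adjusted p 0.0044), a value that rests on few iEC reads. CDA, which deaminates cytidine, rose by 1.57 on the log2 scale (adjusted p 0.00362). ENTPD1, or CD39, which starts the breakdown of extracellular ATP, rose from 24.2 ± 3.20 to 68.5 ± 19.6 CPM (SD, n = 4), or 2.83-fold (adjusted p 0.00101). For SLC29A1, PNP, ADK and SAMHD1 every iREC sample was below every iEC sample, and for ENTPD1 every iREC sample was above.

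The folate and thiamine carriers were mixed. SLC19A1 (ENSG00000173638, chromosome 21, 45493572 to 45544411, minus strand) encodes the reduced folate carrier. It was at 50.3, 45.3, 50.0 and 34.3 CPM in iEC and at 31.5, 27.1, 21.3 and 35.2 CPM in iREC. Sample iREC F lay above iEC F, so the groups overlapped, while the other 3 iREC samples lay below all iEC samples. The log2 fold change was -0.65 ± 0.19 (SE; adjusted p 0.033 by edgeR), and -0.76 without iREC F (adjusted p 0.0195). The call was lost in 6 of 17 alternatives, 5 of them with a library left out (iEC C, iEC D, iEC E, iREC D or iREC E), with an adjusted p of up to 0.0937. SLC19A1 shares 1401 of its 9998 exon bases with COL18A1, a collagen gene on the opposite strand that had 54845 counts against 4558 for SLC19A1 over the 8 samples. Whether counting used the strand is not given in the sources used here, so reads in that stretch cannot be told apart. COL18A1 itself was not called (-0.57, adjusted p 0.417), though it was without iREC F (adjusted p 0.0116).

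SLC19A3 (ENSG00000135917, chromosome 2, 227683763 to 227718031, minus strand) encodes a thiamine carrier, known from brain disease that responds to thiamine and biotin. It had 3, 3, 2 and 1 counts in iEC and 13, 26, 15 and 43 counts in iREC, so that every iREC sample was higher and iREC F was highest. The counts gave a ratio of 11.0 with an exact 95% counting interval of 5.56 to 24.8, and edgeR a log2 fold change of 3.40 ± 0.57 (SE, adjusted p 0.0026). Without iREC F it was 2.99 (adjusted p 0.00454). SLC19A2, the other thiamine carrier, was at 12.4, 13.4, 12.4 and 5.73 CPM in iEC and at 10.1, 11.7, 9.71 and 8.84 CPM in iREC, and its change of -0.12 ± 0.27 (SE) did not pass the test (edgeR adjusted p 0.782). Only iEC F lay below the iREC samples.

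The proton-coupled folate transporter SLC46A1 was at 9.10, 11.0, 6.22 and 4.30 CPM in iEC and at 13.3, 8.07, 14.5 and 8.19 CPM in iREC, a log2 fold change of 0.53 ± 0.33 (SE; adjusted p 0.284 by edgeR). Its groups overlapped. SLC46A1 shares 4421 of its 7838 exon bases, 56.4%, with SARM1 on the opposite strand, which rose from 7.49 to 31.1 CPM (2.05, adjusted p 0.00494), and the part of those reads in the SLC46A1 values was not tested. SLC46A3, a lysosomal carrier and the most abundant SLC46 member, was at 22.2, 46.6, 15.2 and 29.9 CPM in iEC and at 8.90, 15.1, 13.7 and 26.4 CPM in iREC. The change of -0.83 ± 0.40 (SE) was not called (edgeR adjusted p 0.16), and it was called without iREC F at -1.18 (adjusted p 0.0465). SLC46A2 had at most 9 counts in a sample.

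Of 25 genes listed as folate receptors and one-carbon enzymes, 22 were in the table and 18 were tested. 1 rose and 1 fell, 11.1% called against 25.0% of all tested genes, with a median log2 fold change of 0.10 against 0.02. FPGS, which adds glutamates that retain folate in the cell, fell from 91.2 ± 18.0 to 51.5 ± 8.12 CPM (SD, n = 4; -0.83 ± 0.18 SE, adjusted p 0.00848) and was called in all 17 alternatives. The folate receptors FOLR1, FOLR2 and FOLR3 were not analysed here. Of 9 genes that handle thiamine, 8 were tested and 2 fell, 25.0% called, the same share as over all tested genes. OGDH, a dehydrogenase subunit that uses the coenzyme form of thiamine, fell by 0.58 on the log2 scale (adjusted p 0.0214), a call lost without iEC E, iREC C, iREC D or iREC E. The median of the thiamine list was -0.24 against 0.02.

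Among the OATP genes, SLCO2A1 (ENSG00000174640, chromosome 3, 133928145 to 134052184, minus strand), which encodes the prostaglandin transporter, had 0, 6, 2 and 2 counts in iEC C, D, E and F and 27, 182, 185 and 234 counts in iREC. In CPM, iREC C was at 1.77 and iREC D, E and F at 13.0, 11.3 and 15.3, all above the highest iEC value of 0.379. The iEC samples averaged 0.160 ± 0.159 CPM and the iREC samples 10.4 ± 5.95 CPM (SD, n = 4). The fitted log2 fold change was 5.94 ± 0.86 (SE; adjusted p 0.00121 by edgeR), it was called in all 17 alternatives, and it rests on few iEC reads. Without iEC D, which held 6 of the 10 iEC counts, it was 6.77 (adjusted p 0.0023), and without iREC F 5.68 (adjusted p 0.00199).

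SLCO3A1 (ENSG00000176463, chromosome 15, 91853695 to 92172435, plus strand) encodes a broadly expressed OATP that takes up prostaglandins and thyroxine. It was at 10.5, 9.73, 2.90 and 4.94 CPM in iEC and at 61.2, 55.4, 82.3 and 36.6 CPM in iREC. The lowest iREC sample, F, exceeded the highest iEC sample, C. The rise was 8.37-fold, a log2 fold change of 3.07 ± 0.42 (SE; adjusted p 0.000882 by edgeR), with 2.81 to 3.32 over the 17 alternatives, in all of which it was called. SLCO2B1 (chromosome 11, 75100563 to 75206549, plus strand), a carrier of steroid sulfates and of many drugs, was at 0.260, 0.759, 0.414 and 0.573 CPM in iEC and at 2.29, 2.50, 5.31 and 0.917 CPM in iREC. The groups did not overlap, though iREC F came close to iEC D. Its log2 fold change was 2.44 ± 0.57 (SE; adjusted p 0.0131 by edgeR), and 2.73 without iREC F (adjusted p 0.00386). Macrophages also express SLCO2B1, and the 7 markers of macrophages and blood summed to 0.442 to 1.18 CPM in iEC and 2.42 to 3.93 CPM in iREC, with CD14, CD163, CD68, CSF1R and SPI1 under 1 CPM in every sample; the part of such cells in the SLCO2B1 level was not tested.

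SLCO4A1, a carrier of thyroid hormone, was the remaining tested OATP. It was at 5.85, 2.02, 3.26 and 1.86 CPM in iEC and at 0.131, 3.50, 1.53 and 5.57 CPM in iREC, a wide scatter within iREC, and it was not called (-0.28 ± 0.78 SE, edgeR adjusted p 0.828). Without iREC F, its highest iREC sample, the value was -0.93 (adjusted p 0.425). SLCO1C1, the high-affinity thyroxine carrier of brain capillaries, was below the filter. It had 0 counts in every iEC sample and 0, 11, 11 and 0 counts in iREC C, D, E and F, so it was detected in 2 of 4 iREC samples. Against a floor of 3 counts over the iEC group the ratio of summed counts was 7.48, with no allowance for counting error in iREC. Without the filter edgeR did not call SLCO1C1 (adjusted p 0.0905). SLCO1A2, another OATP of brain capillaries, had 1, 0, 0 and 0 counts in iEC and 7, 5, 16 and 11 in iREC. The ratio was 39.8 with an exact 95% counting interval of 6.73 to 1612, and without the filter it was called by edgeR (adjusted p 0.00591) and by DESeq2 (adjusted p 0.000948). SLCO4C1, an OATP known from kidney, ran the other way with 20, 16, 7 and 7 counts in iEC and 4, 3, 6 and 0 in iREC (without the filter, edgeR adjusted p 0.131). SLCO5A1 and SLCO6A1 had at most 4 counts in a sample.

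**Figure D4:**
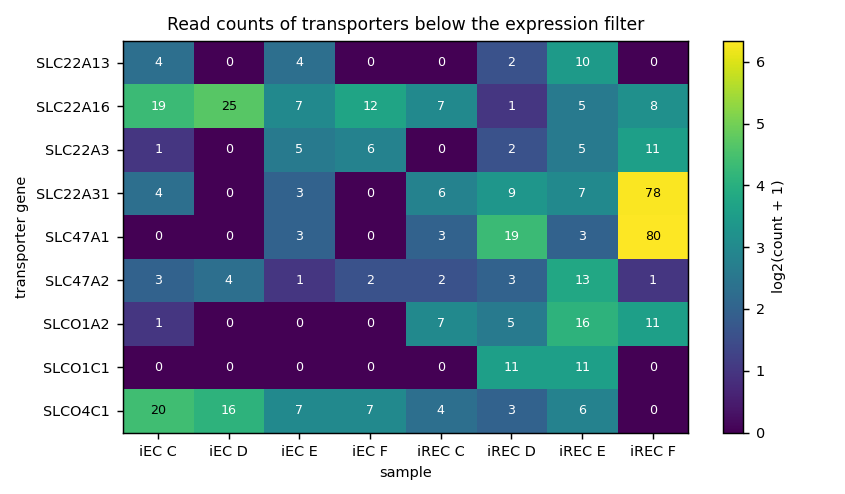
Read counts per sample of 9 transporters below the expression filter that reached 10 counts in a sample, coloured by log2(count + 1) and printed in each cell. SLC47A1 and SLC22A31 reach 80 and 78 counts in iREC F, SLCO1A2 has at least 5 counts in every iREC sample, and SLCO1C1 is at 0 except in iREC D and E.

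Thyroid hormone handling around the OATP genes was read from a list of 16 genes, 11 of them tested. 7 rose and 0 fell, 63.6% called against 25.0% of all tested genes, with a median log2 fold change of 0.95 against 0.02. Some of these 7 genes, such as DIO2, DIO3 and TTR below, had hardly any iEC counts and passed the filter only through iREC. As for the carriers, the share and median therefore describe the tested genes and carry no weight for the list as such. DIO3, the deiodinase that inactivates thyroid hormone, had 0, 4, 0 and 0 counts in iEC and 145, 276, 338 and 200 in iREC (7.76 ± 0.76 SE, adjusted p 0.000155). That fitted value rests on the 4 reads of iEC D: without this library, with 0 counts left in iEC, the fit gave 10.91 (adjusted p 0.000291), which is no bound. TTR, a carrier protein of thyroxine, had 3, 0, 0 and 0 counts in iEC and 1116, 460, 680 and 229 in iREC, a ratio of 845 with an exact 95% counting interval of 289 to 4101. DIO2, the deiodinase that activates the hormone, had 1 count over iEC and 129 over iREC, a ratio of 132 with an interval of 23.2 to 5239. TTR is also a marker of hepatocytes, and the 5 hepatocyte markers in the table, TTR included, summed to 8.73 to 27.8 CPM in iEC and 17.4 to 76.8 CPM in iREC. TTR itself made up 15 to 73.0 CPM of the iREC sums. APOB, the next of these markers, was at 8.52 to 27.5 CPM in iEC and 1.11 to 5.86 CPM in iREC, and ALB and APOA1 were under 1 CPM in every sample.

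Of 20 genes in the table for prostaglandin synthesis, breakdown and reception, 14 were tested. 3 rose and 2 fell, 35.7% called against 25.0% of all tested genes, with a median log2 fold change of 0.30 against 0.02. As for the carriers, this share and median describe the tested genes only. PTGS2, the inducible cyclooxygenase, rose from 3.86 ± 1.40 to 14.6 ± 8.47 CPM (SD, n = 4; 1.92 on the log2 scale, adjusted p 0.00948). PTGER3, a prostaglandin E receptor, rose by 1.91 (edgeR adjusted p 0.0192, and 0.053 without iREC E), and TBXAS1, thromboxane synthase, by 1.76 (adjusted p 0.00486). PTGS1, the constitutive cyclooxygenase, fell by 1.90 at an adjusted p of 0.0491 and was called in 6 of 17 alternatives only, among them only 1 of those with a library left out, that without iEC D. TBXA2R, the thromboxane receptor, fell by 0.50 (adjusted p 0.0181), a call lost without iREC D. HPGD, which inactivates prostaglandins once SLCO2A1 has taken them up, was at 0.585, 1.07, 0 and 0.716 CPM in iEC and at 2.23, 3.57, 4.40 and 0.721 CPM in iREC and was not called (adjusted p 0.0801). Without iREC F, the lowest iREC sample, it was called at 2.51 (adjusted p 0.0373), and DESeq2 called it with all samples (adjusted p 0.0239).

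In the SLC22 family, SLC22A15 (ENSG00000163393, chromosome 1, 115976498 to 116070054, plus strand), a carrier of zwitterions, was at 1.37, 1.83, 0.8287 and 1.15 CPM in iEC and at 5.23, 6.35, 9.47 and 4.45 CPM in iREC. No iREC sample came near the iEC range. It rose 4.91-fold, a log2 fold change of 2.30 ± 0.35 (SE; adjusted p 0.00165 by edgeR), and was called in all 17 alternatives. SLC22A17 (chromosome 14, 23346306 to 23352912, minus strand), which encodes a receptor for the iron carrier lipocalin-2, was at 4.23, 6.32, 2.43 and 2.36 CPM in iEC and at 11.5, 6.64, 8.0 and 9.30 CPM in iREC. The groups were separated by iEC D and iREC D, the closest pair. Its log2 fold change of 1.21 ± 0.36 (SE; adjusted p 0.0352 by edgeR) lost its call when any of 7 libraries was left out (all but iEC D), with an adjusted p of up to 0.0865. SLC22A23, an orphan carrier and the most abundant SLC22 member, was at 28.6, 60.4, 12.5 and 24.6 CPM in iEC and at 37.7, 56.6, 82.3 and 43.7 CPM in iREC and was not called (0.81 ± 0.44 SE, edgeR adjusted p 0.21). The highest iEC sample was D, without which it was called at 1.33 (adjusted p 0.0291). It shares 15.6% of its exon bases with PSMG4 on the opposite strand.

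SLC22A4 (chromosome 5, 132294443 to 132344206, plus strand), which encodes OCTN1, the carrier of the antioxidant ergothioneine, was at 4.03, 6.32, 7.16 and 9.16 CPM in iEC and at 2.62, 2.57, 4.70 and 1.77 CPM in iREC. Sample iREC E overlapped the iEC range, above iEC C. The log2 fold change was -1.19 ± 0.36 (SE; adjusted p 0.0407 by edgeR), which of the 10 calls was kept in the fewest alternatives. It was lost in 8 of 17, 6 of them with a library left out (iEC D, iEC E, iEC F, iREC C, iREC D or iREC F), with an adjusted p of up to 0.109, and -1.01 without iREC F (adjusted p 0.0688). SLC22A5, the carnitine carrier OCTN2, starts 25546 bases beyond the end of SLC22A4 with no coding gene between them. It was at 4.16, 3.60, 3.73 and 4.94 CPM in iEC and at 1.77, 3.64, 3.48 and 9.89 CPM in iREC. Its change of 0.19 ± 0.47 (SE; adjusted p 0.798 by edgeR) turned to -0.47 without iREC F (adjusted p 0.316), so no direction can be given. SLC22A18, from an imprinted region of chromosome 11, was at 1.11 to 4.30 CPM in iEC and 0.916 to 5.11 CPM in iREC, with the F sample highest in each group, and was not called (0.10 ± 0.60 SE, adjusted p 0.92, and -0.63 without iREC F, adjusted p 0.41).

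The upstream bases of SLC22A15 and SLC19A3 are shown as those of carriers whose rise was called in every alternative in which they were tested, in the form and with the marks given above for the SLC29 genes. The prostaglandin transporter gene had no RefSeq promoter in the table used, and the RefSeq and GENCODE starts of SLCO3A1 and SLCO2B1 were too far apart to print one.
SLC22A15, chr1:115976263-115976497, plus strand: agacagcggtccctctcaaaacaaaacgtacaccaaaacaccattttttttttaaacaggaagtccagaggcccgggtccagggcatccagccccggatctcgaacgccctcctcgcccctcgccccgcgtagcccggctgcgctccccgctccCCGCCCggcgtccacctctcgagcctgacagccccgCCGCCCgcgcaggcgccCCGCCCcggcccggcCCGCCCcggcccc
SLC19A3, chr2:227718032-227718278, minus strand: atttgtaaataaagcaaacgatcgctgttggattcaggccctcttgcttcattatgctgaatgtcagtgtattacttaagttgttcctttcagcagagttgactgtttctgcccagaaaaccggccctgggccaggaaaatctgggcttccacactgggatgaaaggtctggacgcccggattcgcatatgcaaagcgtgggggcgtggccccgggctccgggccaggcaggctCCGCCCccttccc

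SLC22A15 holds 4 matches to GGGCGG, all read as its reverse complement, and SLC19A3 holds 1. Neither holds TATAAA or ACGTG in the 250 bases before the RefSeq start.

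The other SLC22 genes and the SLC47 genes were below the filter. SLC47A1, which encodes the extruder MATE1, had 0, 0, 3 and 0 counts in iEC and 3, 19, 3 and 80 in iREC. The ratio over the groups was 35.7 with an exact 95% counting interval of 11.9 to 176, and most of the iREC counts lay in iREC F. SLC22A31, an orphan member, had 4, 0, 3 and 0 counts in iEC and 6, 9, 7 and 78 in iREC, again mostly in iREC F. Without the filter edgeR called SLC47A1 (adjusted p 0.019) and SLC22A31 (adjusted p 0.0329). DESeq2 called SLC47A1 (adjusted p 0.00176) and gave no adjusted p for SLC22A31. No fit left out both the filter and iREC F, so how far these calls rest on that library was not tested. MATE1 is known from the kidney, and the 6 markers of proximal tubule summed to 6.51 to 11.4 CPM in iEC and to 12.4, 188, 214 and 615 CPM in the iREC samples C to F, with SLC34A1 and SLC5A2 under 1 CPM in every sample. The rise of that sum lay in AQP1 (7.0, 151, 203 and 217 CPM in iREC C to F) and LRP2 (0.785, 31.1, 5.74 and 395 CPM). CUBN went the other way, with 4.80 to 6.95 CPM in iEC and 1.83 to 3.86 CPM in iREC. PDZK1 was at most at 1.285 CPM in any sample. The part of such cells in the SLC47A1 and SLC22A31 counts was not tested.

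SLC22A16, a carnitine carrier known from testis, had 19, 25, 7 and 12 counts in iEC and 7, 1, 5 and 8 in iREC (without the filter, edgeR adjusted p 0.142). The organic cation carrier SLC22A3, with 1, 0, 5 and 6 counts in iEC and 0, 2, 5 and 11 in iREC, was near the floor, and SLC22A2 had counts in 1 iREC sample only. SLC22A13 had at most 10 counts in a sample and SLC47A2, or MATE2, at most 13. In all, 9 of the 19 genes below the filter had at most 9 counts in any sample, and a count of 3 corresponds to 0.177 to 0.218 CPM here, so differences in them were not detectable at this depth. Of the 19, 3 were called without the filter and 2 by DESeq2. Over all 30386 genes, these fits called 3887 without the filter and 4954 by DESeq2.

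Genes that handle the cargo of the SLC22 carriers were read from lists for carnitine and for amines. Of 14 carnitine genes, 13 were tested, 4 rose and 1 fell, 38.5% called against 25.0% of all tested genes, with a median log2 fold change of 0.27 against 0.02. As for the carriers, this share and median describe the tested genes only. CROT, the peroxisomal carnitine octanoyltransferase, was at 14.95, 23.2, 11.5 and 23.0 CPM in iEC and at 261, 221, 347 and 141 CPM in iREC (3.74 ± 0.34 SE, adjusted p 0.000105). CPT1A, which loads long-chain fatty acids onto carnitine, was at 12.7, 19.4, 34.6 and 58.5 CPM in iEC and at 189, 164, 175 and 125 CPM in iREC (2.38 ± 0.42 SE, adjusted p 0.00339). CPT1C, a brain relative of CPT1A, rose by 0.93 (adjusted p 0.0347), a call lost without iEC C, iEC D, iEC E, iREC D or iREC E. HADHA, a subunit of the mitochondrial enzyme that shortens long-chain fatty acids, fell by 0.42 at an adjusted p of 0.0423 and was called in 5 of 17 alternatives only, none of them with a library left out. Thus CROT and CPT1A were higher in every iREC sample, while the carnitine carrier SLC22A5 was not called. Of the amine genes, 10 were in the table and 7 were tested, of which 3 rose and 0 fell. That is 42.9% called against 25.0% of all tested genes, with a median of 1.48 against 0.02. DDC passed the filter only through iREC, so here too the share and median describe the tested genes only. MAOA, monoamine oxidase A, was at 1.63, 1.45, 3.49 and 5.58 CPM in iEC and at 168, 98.4, 133 and 69.1 CPM in iREC (5.27 ± 0.49 SE, adjusted p 0.000118). AOC3, a surface amine oxidase, rose by 4.13 (adjusted p 0.00189; 4.85 without iEC D), and DDC, which decarboxylates aromatic amino acids, had 1 count over iEC and 83 over iREC, a ratio of 84.7 with an exact 95% counting interval of 14.8 to 3385.

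**Figure D5:**
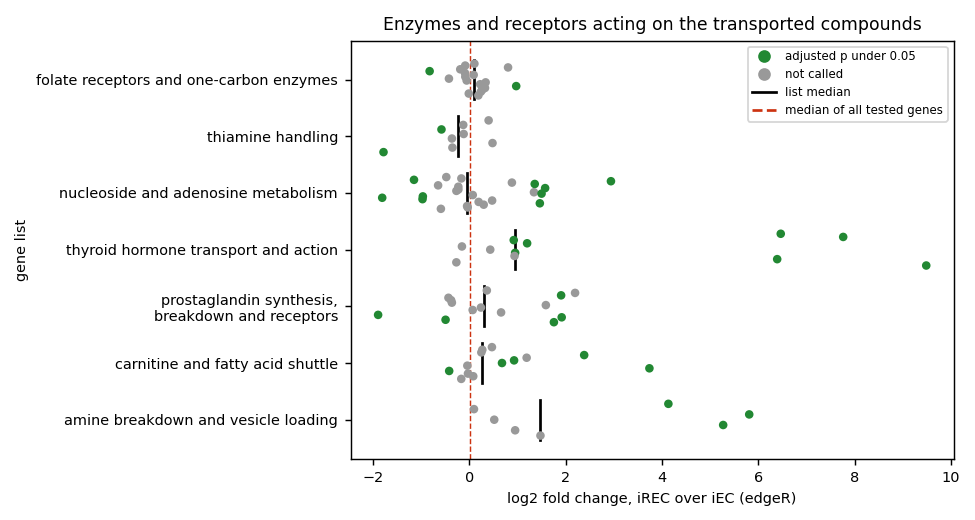
Log2 fold change of iREC over iEC (edgeR) for the tested genes of 7 lists around the transported compounds, 1 point per gene, green where the adjusted p was under 0.05; black bars are list medians and the dashed line is the median of all tested genes, 0.02. The thyroid hormone list holds 7 called genes, all to the right, and the nucleoside list holds 5 to the right and 4 to the left.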

How the data were processed

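RNA from 8 samples was sequenced, and the authors deposited 1 table of 30386 genes. Per the file headers, columns of raw read counts stand beside scaled values for each sample; the deposited normalized signal equals each count divided by a size factor per sample, and the deposited FPKM values equal that signal per kilobase of exon, relative to 1 library size of 15383181 for all samples. The authors' log2 fold changes and p-values were not used for the results. Per the submitters' processing notes, fastp and HISAT2 2.0.5 were used, with build hg38. The counting program and its strand setting are not given in the sources used here; per the labels' protocols the libraries were poly-A selected and made with dUTP. No listed gene totalled under 2 counts. Coordinates of all 38 members matched GENCODE 29 (GRCh38, 1-based).

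From the counts, edgeR 4.0.16 (R 4.3.3) kept 15330 genes by filterByExpr, scaled libraries by TMM and compared the groups by the quasi-likelihood F-test with group as the only term, with Benjamini-Hochberg adjustment over all tested genes; the script was tested on simulated data. The SE beside an edgeR log2 fold change is its absolute value divided by the square root of the F statistic. It is not a standard error estimated by the model. Levels are CPM on TMM-scaled libraries; a prior count of 2 entered log2 CPM. Where a group had few counts, the ratio of summed counts is given with an exact 95% interval. Where it had none, the ratio is taken against a floor of 3 counts over the group. Intervals and floors cover counting error only, since no molecular identifiers are named.

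Alternatives were other scalings (DESeq2 1.42.0 size factors, the upper quartile, or the library size alone), other filters (none, or 1 CPM or more throughout either group), the DESeq2 test, limma-voom (limma 3.58.1), a fit of protein-coding genes only, a replicate block, and leaving out each sample. Members, gene lists and rules were chosen with earlier results of these data known. Named were called members, 5 given markers, the most abundant member of each family, members averaging 5 CPM or more in either group, members below the filter with 10 or more counts in a sample, and up to 3 called genes per direction and list. SLC29A4, SLC22A5, SLC22A18, SLCO4A1, HPGD, SARM1, COL18A1, PSMG4 and TNRC18 lie outside that rule and were picked with their values in view. The same holds for the low members given by their highest count, the absent folate receptors and the single cell type markers given with values. A planned comparison of protein sequences was not run, as no protein table was used here. Some genes of the lists and families are counted but not reported by name here.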

Additional observations from a re-analysis of the deposited data

Results flagged for a closer look

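3 of 38 groups of 4 samples checked over the 19 tested members held a sample far from the other 3 (by the gap to the nearest other sample as a share of the group's range, Dixon's test), where chance alone gives about 1.9. The thiamine carrier SLC19A2 was at 2.55 log2 CPM in iEC F, against 3.64 to 3.76 in iEC C, D and E. The monoamine carrier SLC29A4 was at 1.80 log2 CPM in iEC F, against 0.30 to 0.41 in the other iEC samples. The prostaglandin transporter gene SLCO2A1 was at 0.92 log2 CPM in iREC C, against 3.51 to 3.95 in iREC D, E and F. Sample F held the highest value of its group for 5 of 19 tested members in iEC and for 9 of 19 in iREC.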

How the results depend on the processing

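SLC19A3, SLC22A15, SLC29A1, SLCO2A1, SLCO2B1 and SLCO3A1 were called in every alternative in which they could be tested, while SLC19A1, SLC29A3, SLC22A4 and SLC22A17 each lost their call in 6 or more. Leaving out 1 sample gave 6 to 9 called members and 1 to 4 called lower, the fewest without iEC E or iREC D; it gave 1 to 2 calls in the folate list, 1 to 3 in the thiamine list, 3 to 6 in the prostaglandin list and 2 to 6 in the carnitine list, and moved the calls over all genes from 2660 (without iREC D) to 4214 (without iREC F). DESeq2 called 8 prostaglandin and 5 amine genes, limma-voom 1 folate gene, and no filter left 3 carnitine calls. Whether the letters pair the samples cannot be told from these values. Correlations of same-letter deviations were 0.168 for C, -0.079 for D, 0.029 for E and 0.25 for F. Those of different letters ran from -0.221 to 0.178, so the F pair was the highest of all. The replicate block gave 7 called members, of which 1 was lower, 1 folate, 2 prostaglandin and 2 carnitine calls, and 3334 calls over all genes.

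Directions turned only in members that were not called: SLC22A5 (limma-voom -0.07, replicate block -0.052, without iREC F -0.47; up to 0.46 without iREC C), SLC22A18 (without iEC C -0.14, iEC D -0.01, iEC E -0.05, iREC F -0.63; up to 0.66 without iEC F), SLC29A4 (without iREC F -0.094; up to 0.76 without iEC F) and SLCO4A1 (without iEC C 0.16, without iREC C 0.12; -0.93 without iREC F and -1.002 with limma-voom). Without its most abundant member, the log2 ratio of the summed CPM went from -0.47 to 0.076 in SLC19, from -1.72 to -0.51 in SLC29, from -0.41 to 0.52 in SLC46, from 3.31 to 0.89 in SLC47 and from 2.68 to 1.83 in SLCO. Upper quartile scaling moved the median of all tested genes from 0.02 to 0.05, and the other scalings to 0.03 at most. Depth limits the 19 members below the filter and the iEC level of SLCO2A1, SLCO2B1 and SLC19A3.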
